A study of Mus musculus with 12 samples.

Results

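The difference between the responses of *Bst2* knockout (KO) and wild-type (WT) haematopoietic stem cells (HSCs) to interferon-γ (IFN-γ) was measured gene by gene. For each gene the IFN-γ effect was the treated minus the naive mean of log2(value + 1) within a genotype, and the difference was the KO effect minus the WT effect. A positive difference therefore marks a higher effect in KO, and a negative one a lower effect in KO. All genes with a value of at least 100 units in 3 or more libraries were taken, which kept 10816 of the 24946 gene rows with a usable name. HSCs came from the bone marrow of C57BL/6 mice, sorted as lineage-negative cells with c-Kit and CD150 and without CD48 and CD34, and 4 groups held 3 libraries each: KO mice given IFN-γ (rm-IFNg in the labels, 100 µg) for 24 h, naive KO mice, WT mice given the same dose for the same time, and naive WT mice. The knockout is labelled BST2KO. The sources used here do not say how the allele was made or give the age and sex of the mice. Libraries are not tied to mice in the labels, so every p-value measures the spread between these libraries, which may be partly technical. In bulk RNA, fewer cells of a type and less RNA per cell cannot be told apart.

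IFN-γ binds a receptor made of Ifngr1 and Ifngr2 chains, and the Janus kinases on that receptor activate transcription factor dimers that bind GAS elements of target genes. Type I interferon acts mainly through a complex with STAT2 and IRF9, which binds ISRE elements. Targets include the MHC class I and II presentation genes, guanylate-binding proteins and immunity-related GTPases, and in HSCs interferons are known to affect quiescence, cell cycle entry and megakaryocyte output. *Bst2* encodes tetherin, a membrane protein that is itself induced by interferons.

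The promoters of 4 genes are printed because they span what the comparison covers: the deleted gene, an interferon GTPase, and both platelet genes with the smallest p among megakaryocyte genes. They are RefSeq windows (GRCm38.p6) of 300 bases, mostly before and partly after the gene start, 5′ to 3′ on the gene's strand. For *Bst2* and *Tgtp1* the capitals mark matches to GAS, with the letters TTCNNNGAA, and to ISRE, with the letters GAAANNGAAA, and for *Gp5* they mark matches to the GATA factor motif, with the letters AGATAA, each searched on both strands. In *Bst2* the GAS and the pair of ISRE matches overlap and form 1 run, and in *Tgtp1* a GAS and an ISRE match are separated by lower-case letters. *Gp5* also holds a GAS match near its 5′ end, left in lower case, and *Tgtp1* a GATA match. *Plek* holds none of these letters in its window. *Bst2* lies on chromosome 8 (chr8:71537423-71537722, minus strand), *Tgtp1* on chromosome 11 (chr11:48992197-48992496, minus strand), *Gp5* on chromosome 16 (chr16:30310732-30311031, minus strand) and *Plek* on chromosome 11 (chr11:17008669-17008968, minus strand).
Bst2: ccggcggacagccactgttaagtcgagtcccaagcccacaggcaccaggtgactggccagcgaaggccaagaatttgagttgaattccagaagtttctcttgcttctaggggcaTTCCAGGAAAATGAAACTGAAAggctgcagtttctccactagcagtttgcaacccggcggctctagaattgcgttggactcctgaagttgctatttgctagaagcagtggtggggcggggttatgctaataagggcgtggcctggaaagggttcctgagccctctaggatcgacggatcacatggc
Tgtp1: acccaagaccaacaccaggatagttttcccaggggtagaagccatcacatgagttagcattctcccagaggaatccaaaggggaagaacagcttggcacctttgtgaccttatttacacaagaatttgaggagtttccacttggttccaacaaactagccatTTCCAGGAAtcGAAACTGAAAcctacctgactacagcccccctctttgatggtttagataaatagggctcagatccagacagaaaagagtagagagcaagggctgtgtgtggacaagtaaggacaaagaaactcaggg
Gp5: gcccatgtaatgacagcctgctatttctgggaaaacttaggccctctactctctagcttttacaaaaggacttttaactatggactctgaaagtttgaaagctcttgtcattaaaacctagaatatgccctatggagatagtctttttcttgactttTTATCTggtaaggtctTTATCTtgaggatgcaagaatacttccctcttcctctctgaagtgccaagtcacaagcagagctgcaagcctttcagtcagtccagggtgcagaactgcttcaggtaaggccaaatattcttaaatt
Plek: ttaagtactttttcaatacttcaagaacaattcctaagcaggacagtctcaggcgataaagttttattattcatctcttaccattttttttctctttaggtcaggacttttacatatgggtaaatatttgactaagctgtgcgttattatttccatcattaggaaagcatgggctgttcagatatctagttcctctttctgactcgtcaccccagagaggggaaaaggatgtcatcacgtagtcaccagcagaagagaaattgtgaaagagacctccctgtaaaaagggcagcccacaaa

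Promoter windows were found for 8603 of the 10816 genes. A gene was counted where any of its windows held the letters. GAS letters occurred for 8.2% of these genes, ISRE letters for 3.9% and GATA letters for 7.7%. Of 101 such genes with an unadjusted p below 0.05 and a higher effect in KO, 12 held GAS letters (11.9%), 2 ISRE letters (2.0%) and 3 GATA letters (3.0%). Of 197 with a lower effect in KO, 11 held GAS letters (5.6%), 9 ISRE letters (4.6%) and 18 GATA letters (9.1%). In the IFN-γ response list 12 of 27 genes with a window held GAS letters and 12 held ISRE letters, 44.4% each. GATA letters also lay above the share of all genes there, at 7 of 27 (25.9%). Among type I genes 8 of 36 held GAS letters (22.2%), 16 ISRE letters (44.4%) and 6 GATA letters (16.7%). For MHC class I these were 1 of 14 (7.1%), 4 (28.6%) and 0 (0.0%), so GAS letters were not raised in that list. These are letter matches in a short window and were not tested as binding sites.

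Each library's title carries a code from 1 of 3 series, FL-06, R-07 or R-09, whose meaning is not stated. Every group held 1 R-09 library. The other libraries of both WT groups were FL-06 (2 each), and each KO group held 1 FL-06 and 1 R-07 library. Below, KO values are given in the order FL-06, R-07, R-09 and WT values in the order FL-06, FL-06, R-09. *Kit* (5902 to 11369 units) and *Slamf1* (281 to 768 units), which encode the surface proteins c-Kit and CD150 selected by the sort, were present in all 12 libraries. *Cd3e* of T cells was at 0 in all 12, but *Lck* of the same T and NK cell list had 16.9 to 227 units. The R-09 libraries stood apart from the others. *Cd34*, which encodes a protein the sort selected against, lay between 3098 and 3629 units in R-09 and between 462 and 821 units elsewhere, and *Mki67*, a proliferation gene, between 332 and 630.3 units in R-09 and 17574 and 24051 units elsewhere. The sum of 22 neutrophil granule genes was 121851 to 258438 units in R-09 and 11659 to 18553 units in the other 8 libraries. *Cd48*, which encodes another protein the sort selected against, lay between 368 and 582 units in R-09 and between 1.1 and 268 units elsewhere. *Nkg7*, of the T and NK cell list, had 3208 to 3732 units in R-09 and 33.6 to 304 units elsewhere. The naive WT library 2 (FL-06) was far shallower than the rest, at an estimated 0.495 M reads against 8.77 to 52.1 M reads, so that 3 reads would be worth 102 units there.

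*Bst2* itself separated the genotypes. It had 24.8, 0 and 18.8 units in treated KO libraries and 0, 8.89 and 3.67 units in naive KO libraries, against 547, 606 and 1514 units in treated WT libraries and 336, 152 and 1367 units in naive WT libraries. Each KO value lay below each WT value. The KO values are at or near 0, so a KO effect of *Bst2* has no clear meaning and its fitted difference is not read here.

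No gene passed the test of the difference (limma with Benjamini-Hochberg adjustment over 10816 genes, percent called 0, smallest adjusted p = 0.9331). At an unadjusted p below 0.05 there were 367 genes (3.39%), against 541 expected by chance alone, of which 124 (1.15%) had a higher and 243 (2.25%) a lower effect in KO. After quantile normalization these counts were 223 and 209. With 1 library left out at a time, the counts ran from 50 (without treated WT library 1) to 226 (without naive WT library 2) for a higher effect in KO, and from 82 (without treated WT library 2) to 661 (without naive WT library 1) for a lower one. The median difference over all genes was -0.11, with the middle 90% of genes between -2.28 and 0.84. The KO effects spread from -0.68 to 0.75 between the same percentiles and the WT effects from -0.63 to 2.26. Thus every gene named from here on is described by its values, and none is called changed by the difference. The median SE was 0.45, which gives a 95% interval of about 0.99 to either side of the estimate. Of all genes, 3582 (33.1%) had an interval wholly between -1 and 1, that is, within a 2-fold gap between the genotypes' effects on either side. Precision followed the level of a gene: 94.1% of the 1488 genes with a mean log2 value over 11 met that limit, 48.1% of the 4443 genes between 9 and 11, 1.4% of the 3348 genes between 7 and 9, and 0% of the 1537 genes under 7.

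The negative tail was longer than the positive one. The difference was below -1 for 1318 genes (12.2%) and above 1 for 374 genes (3.46%). Of the 975 tested genes listed at 0 in naive WT library 2, 812 had a difference below -1 and 17 a difference above 1. Among the 9587 genes above 0 in all 12 libraries the counts were 422 below -1 and 275 above 1. Without that library, 738 genes lay below -1 and 513 above 1, and the median difference of all genes was -0.05.

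**Figure D1:**
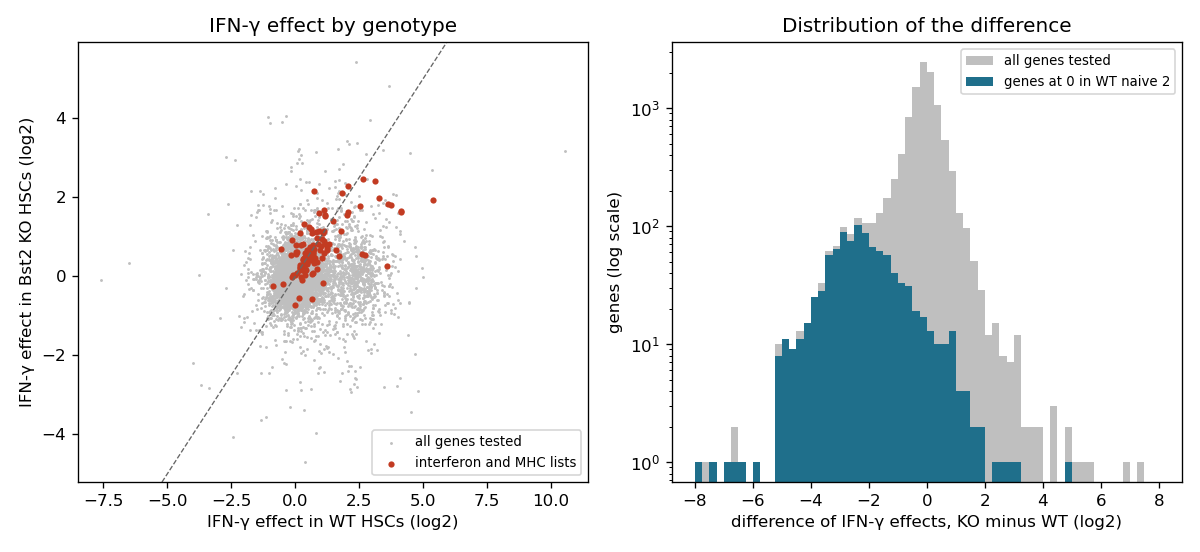
IFN-γ effects by genotype and the distribution of their difference. Left, each point is 1 of 10816 genes, with the WT effect on the x axis and the KO effect on the y axis (both log2 treated minus naive), members of the 4 interferon and MHC lists in red and the line of equal effects dashed. Right, the number of genes (log scale) by difference, KO minus WT (log2), in bins from -8 to 8, with the 975 genes at 0 in naive WT library 2 in blue. The blue genes make up most of the tail below -1, where 812 of them lie.

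The interferon targets had positive median effects in both genotypes. In the IFN-γ response list the median effect was 0.68 in KO and 0.58 in WT over 37 tested members, and 34 of them had a KO effect above 0 and 33 a WT effect above 0. Of all 10816 genes, 5517 had a KO effect and 6726 a WT effect above 0. The code series were unequal: the list's median effect was 0.99 (FL-06), 0.82 (R-07) and 0.085 (R-09) in KO, and 0.88 (FL-06) and 0.064 (R-09) in WT, so that R-09 lay near 0 in both genotypes. The median difference was -0.054, and 15 of its 37 tested members had a difference above 0, against 39.8% of all genes. The members' differences ran from -3.32 to 1.27, and 0 of them had an unadjusted p below 0.05. *Tgtp2* and *Tgtp1*, near-identical interferon-inducible GTPases whose reads the counting could split, are uncertain for that reason. *Tgtp1* had 3401, 2812 and 3219 units in treated KO libraries and 1068, 765 and 2731 units in naive KO libraries, against 2938, 2506 and 3058 units in treated WT libraries and 1425, 1573 and 3229 units in naive WT libraries. All 3 treated KO values lay above the 3 naive KO values, whereas in WT the naive R-09 value lay above all 3 treated values. The *Tgtp1* effect was 1.26 in KO and 0.55 in WT, a difference of 0.72 (SE 0.40), and *Tgtp2* had a difference of 0.21 (SE 0.39). *Psme1*, a subunit of the proteasome activator PA28, had effects of 0.45 in KO and 0.46 in WT, a difference of -0.011 (SE 0.24) with a 95% interval of -0.55 to 0.52. *Gbp8*, a guanylate-binding protein, had 618, 93.7 and 311 units in treated KO libraries and 220.0, 149 and 127 in naive KO libraries, against 366, 341 and 152 in treated WT and 398, 586 and 264 in naive WT. Its difference of 1.27 (SE 0.65) had the smallest p of the list (0.0784, limma, unadjusted), and the R-07 pair went the other way, with a KO effect of -0.66.

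The list of type I interferon-stimulated genes showed a median effect of 0.60 in KO and 0.64 in WT, with 41 of 44 members above 0 in KO and 41 in WT. By code series their median effect was 0.85 (FL-06), 0.77 (R-07) and 0.33 (R-09) in KO, and 0.94 (FL-06) and 0.17 (R-09) in WT. Their median difference was 0.050, 23 of the 44 members had a difference above 0, and 0 had an unadjusted p below 0.05. *Lgals3bp*, a secreted galectin-3-binding glycoprotein, had a difference of 0.21 (SE 0.18) with an interval of -0.19 to 0.62. *Ifitm3*, an antiviral protein of endosomal membranes, had effects of 0.90 in KO and 1.13 in WT and a difference of -0.23 (SE 0.42). *Xaf1*, a pro-apoptotic interferon target, had effects of -0.17 in KO and 1.07 in WT and a difference of -1.25 (SE 0.66). The *Xaf1* value in the treated FL-06 KO library was 79.3 units, against 246 units in the naive one, while the R-07 and R-09 pairs were higher in the treated library. *Phf11d* was listed at 0 in naive WT libraries 1 and 2 and had 32.8, 13.0 and 92.7 units in naive KO libraries, so its difference of -3.45 (SE 1.90) rests on values near the detection limit.

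MHC class I genes, which present peptides from inside the cell, had more narrow intervals, for their number, than the other interferon lists. The median effect of 19 tested members was 0.49 in KO and 0.52 in WT, the median difference was -0.043, and 7 members had a difference above 0. In R-09 the median effect was 0.30 in KO and 0.26 in WT, and in FL-06 0.63 in KO and 0.58 in WT. For 12 of the 19 members the 95% interval lay between -1 and 1 (background 33.1%). *H2-K1* had 20429.9, 26436 and 52966 units in treated KO libraries and 13624, 18045 and 38675 units in naive KO libraries, against 22208, 23203 and 54932 units in treated WT libraries and 12983, 13664 and 39888 units in naive WT libraries. Within each code series and genotype the treated value was above the naive one. *H2-K1*, a classical heavy chain, had effects of 0.53 in KO and 0.67 in WT, a difference of -0.14 (SE 0.12) (0.07 after quantile normalization) and an interval of -0.41 to 0.14. *H2-D1*, the other classical heavy chain, had effects of 0.47 in KO and 0.33 in WT, a difference of 0.13 (SE 0.13) and an interval of -0.15 to 0.42. *H2-Q7* and *H2-T22*, non-classical class I genes, had differences of -0.90 (SE 0.50) and 0.54 (SE 0.35). The *H2-Q7* value was -0.36 without naive WT library 2, and that of *H2-T22* was 0.23 without either R-07 library. Class I genes have close paralogs, so reads may be split between them, and *H2-T22* and *H2-Q7* are uncertain for that reason.

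MHC class II genes, which present peptides taken up from outside, had a median effect of 0.60 in KO and 1.11 in WT, and a median difference of -0.51 over 13 tested members. That median was -0.22 without naive WT library 2 and -0.91 without the R-09 libraries. By code series the median effect was 1.21 (FL-06), 0.87 (R-07) and 0.33 (R-09) in KO, and 1.65 (FL-06) and 0.56 (R-09) in WT. Of the members, 3 had a difference above 0 and 0 had an unadjusted p below 0.05. *Cd74* had 3560.1, 4210.5 and 8293 units in treated KO libraries and 797, 1070.5 and 3612 units in naive KO libraries, against 4224, 4731 and 10261 units in treated WT libraries and 669, 429 and 3535 units in naive WT libraries. Treated values lay above the naive values of the same genotype and code series in each case, and within each group the R-09 value was the highest. *Cd74*, the invariant chain, rose in WT (effect 2.55, limma adjusted p = 0.0355), the only gene named here to pass in either genotype, and had an effect of 1.78 in KO (adjusted p = 0.164). The difference of -0.77 (SE 0.42) did not pass (adjusted p = 0.9331), and its interval ran from -1.70 to 0.15. With 1 library left out it ran from -1.18 (without naive WT library 3) to -0.45 (without naive WT library 2). For *H2-Ab1*, a class II beta chain, the effects were 1.40 in KO and 1.48 in WT and the difference -0.077 (SE 0.33). *Rfxank*, a subunit of the RFX complex at class II promoters, had a difference of -0.69 (SE 0.43). The list's median was -0.87 within FL-06 and -0.17 within R-09, and -0.39 within FL-06 without naive WT library 2.

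Receptors and signalling genes of the interferon pathway had effects near 0 on the whole, with a median of 0.21 in KO and -0.0092 in WT over 16 members. The median difference was -0.13, 5 members had a difference above 0 and 0 an unadjusted p below 0.05. The code series gave opposite medians, -0.37 within FL-06 (4 of 16 above 0) and 0.33 within R-09 (10 of 16 above 0). Within FL-06 without naive WT library 2 the median was -0.05. *Ifngr1*, the ligand-binding receptor chain, had effects of -0.27 in KO and 0.16 in WT, a difference of -0.43 (SE 0.22). *Stat2* had 904, 887 and 662 units in treated KO libraries and 467, 709 and 527 units in naive KO libraries, against 863, 1047 and 556 units in treated WT libraries and 896, 1331 and 569.7 units in naive WT libraries. In each KO series the treated value was the higher one, and in WT the treated and naive values overlapped. *Stat2*, a transcription factor of the type I pathway, had effects of 0.53 in KO and -0.15 in WT and a difference of 0.68 (SE 0.37), with the code-series effects of KO (0.95, 0.32 and 0.33) all above those of WT (-0.20 and -0.036). Such a separation was seen for 706 genes higher in KO (6.53%) and 1279 genes lower in KO (11.8%). *Jak1*, a kinase shared by both interferon receptors, had a difference of 0.16 (SE 0.17). With 1 library left out, the difference of *Stat2* ran from 0.39 (without naive KO library 3) to 0.90 (without naive KO library 1), that of *Ifngr1* from -0.60 (without treated WT library 3) to -0.28 (without naive WT library 2), that of *Tgtp1* from 0.41 (without naive KO library 2) to 1.08 (without treated KO library 2), and that of *Gbp8* from 0.97 (without naive KO library 3) to 1.95 (without naive KO library 2). The range was -1.68 (without naive KO library 2) to -0.71 (without naive KO library 3) for *Xaf1*. Medians of the interferon lists this close to 0 depended on the scaling: after quantile normalization they were 0.11 for the IFN-γ response, 0.08 for type I genes, 0.03 for MHC class I, 0.09 for receptors and -0.16 for MHC class II, with -0.02 for all genes.

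**Figure D2:**
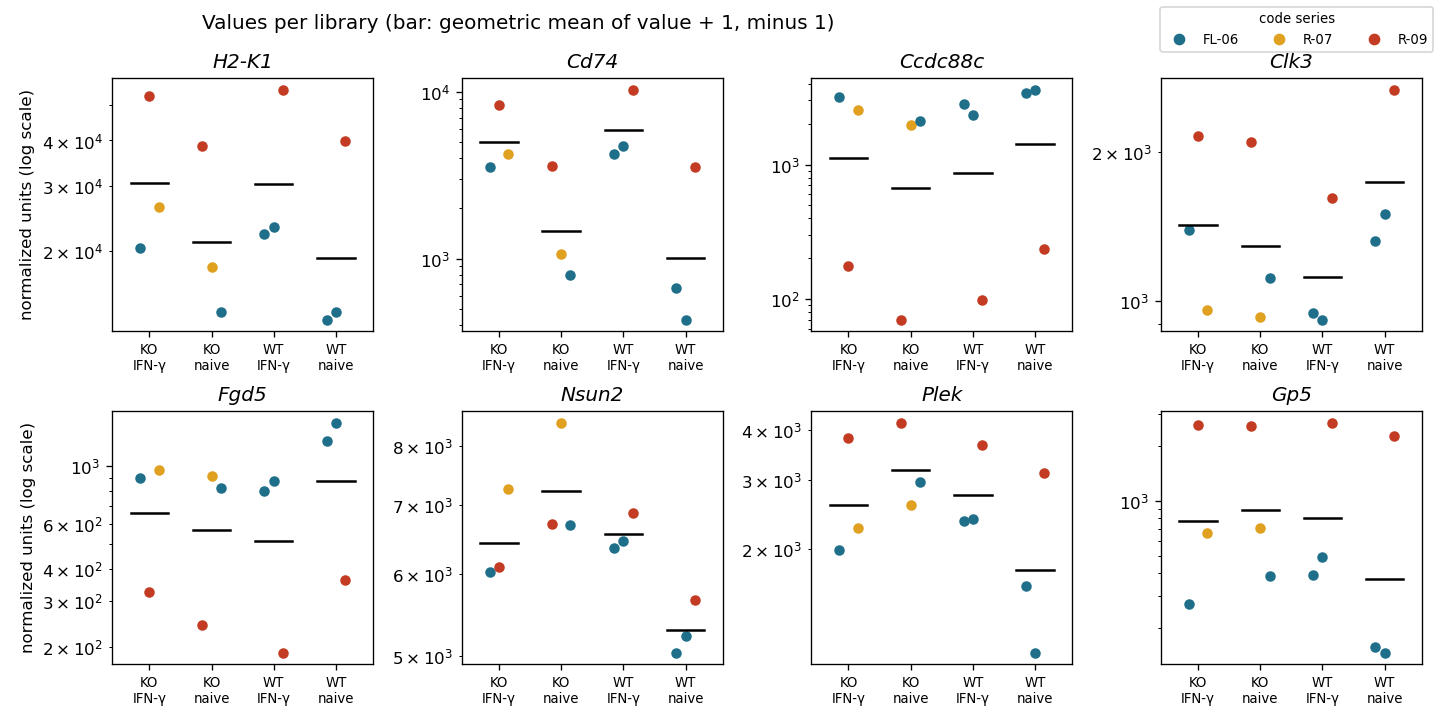
Deposited values of 8 genes in each of the 12 libraries (y axis, normalized units, log scale), by group on the x axis (treated KO, naive KO, treated WT, naive WT) and coloured by code series. Bars are geometric means of value + 1, minus 1. *Cd74* is higher in the treated libraries of each genotype and code series, *H2-K1* likewise, and *Ccdc88c* and *Gp5* differ more between code series than between groups.

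The 12 genes with the most positive moderated t (the difference over its SE), among genes of a mean log2 value of at least 7 that were above 0 in all 12 libraries and whose code-series effects did not overlap, ran from *Ccdc88c* to *Cdc40*. These were chosen by their value, so their size is a description. *Ccdc88c* had 3156, 2533 and 176 units in treated KO libraries and 2119, 1984 and 69.8 units in naive KO libraries, against 2836, 2355 and 97.7 units in treated WT libraries and 3426, 3592 and 236 units in naive WT libraries. In R-09 the values were far below those of the other series in every group. *Ccdc88c*, which encodes a Dishevelled-binding regulator of Wnt signalling, had KO effects of 0.57, 0.35 and 1.33 and WT effects of -0.44 and -1.26, and a difference of 1.47 (SE 0.34) with the smallest p of all genes (0.00116, adjusted p = 0.9331). *Clk3* had 1395, 962 and 2154 units in treated KO libraries and 1114, 930.0 and 2095 units in naive KO libraries, against 947, 917 and 1614 units in treated WT libraries and 1325, 1495 and 2664 units in naive WT libraries. *Clk3*, a kinase of SR splicing factors, had KO effects between 0.040 and 0.32 and WT effects of -0.59 and -0.72, a difference of 0.77 (SE 0.20). Each WT treated value was below the naive WT values of its code series, and each treated KO value was above the naive KO value of its series. *Arfip2*, a partner of ARF GTPases, had 762, 589 and 551 units in treated KO libraries and 483, 387 and 546 in naive KO libraries, against 425, 452 and 528 in treated WT and 737, 1185 and 840.2 in naive WT, a difference of 1.37 (SE 0.37). All 3 treated WT values of *Arfip2* lay below all 3 naive WT values.

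Of the remaining 9, *Tbc1d10c*, an inhibitor of calcineurin and Ras signalling, had a difference of 0.84 (SE 0.24), and *Col16a1*, a collagen chain, one of 1.20 (SE 0.35). *Arglu1*, a splicing modulator, had a difference of 0.66 (SE 0.20), *Cdc40*, a splicing factor of the second catalytic step, one of 0.90 (SE 0.28), and *Mafk*, a small Maf partner of NF-E2, one of 0.71 (SE 0.22). *Tmem129*, a ubiquitin ligase of the endoplasmic reticulum, had a difference of 1.46 (SE 0.45), *Gm20605* one of 1.06 (SE 0.32) and *Gm13212* one of 1.81 (SE 0.55). *Zkscan8*, a zinc finger gene, had the widest spread, with a difference of 2.81 (SE 0.85) that was 1.84 within FL-06 and 5.68 within R-09. The first gene outside the list was *Nwd1* (moderated t 3.23, difference 1.14), next to *Cdc40* inside it (moderated t 3.24), out of 634 genes that could have entered.

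At the negative end the 12 genes ran from *Rnaset2b* to *Oraov1*, out of 1052 that could have entered. *Nsun2* had 6028, 7258 and 6096 units in treated KO libraries and 6702, 8418 and 6710.2 units in naive KO libraries, against 6365, 6457 and 6875 units in treated WT libraries and 5031, 5219.5 and 5660.4 units in naive WT libraries. The 3 naive WT values were the lowest of the 12, and the treated WT values lay inside the range of the KO libraries. *Nsun2*, a cytosine-5 RNA methyltransferase, had KO effects of -0.15, -0.21 and -0.14 and WT effects of 0.32 and 0.28, a difference of -0.48 (SE 0.12) with an interval of -0.75 to -0.21. *Plek* had 1989, 2257 and 3823 units in treated KO libraries and 2961, 2591 and 4173 units in naive KO libraries, against 2361, 2384 and 3672 units in treated WT libraries and 1613, 1092 and 3124 units in naive WT libraries. Within each KO series the treated value was the lower one, and within each WT series the higher one. *Plek* encodes pleckstrin, the main protein kinase C substrate of platelets, and had effects of -0.30 in KO and 0.64 in WT, a difference of -0.94 (SE 0.26). *Mtmr9*, a myotubularin-related protein without phosphatase activity, had 488, 740.1 and 352 units in treated KO libraries and 604, 691 and 475 in naive KO libraries, against 542, 635 and 411 in treated WT and 221, 267 and 239 in naive WT. Naive WT values were below all 9 others for this gene, and the difference was -1.32 (SE 0.39).

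*Cotl1*, *Capza2* and *Myo1f* encode proteins that act on actin filaments, namely a coactosin-like protein, a capping protein subunit and a myosin of immune cells. Their differences were -1.09 (SE 0.30), -0.59 (SE 0.17) and -1.30 (SE 0.39), and the R-07 KO effect was slightly above 0 for *Cotl1* (0.083) and *Capza2* (0.12), as it was for *Mtmr9* (0.10). *Arhgap32*, a GTPase-activating protein, had a difference of -2.09 (SE 0.57), *Ptp4a1*, a PRL family phosphatase, one of -1.99 (SE 0.52), and *Sf3b6*, a subunit of the SF3b splicing complex, one of -0.68 (SE 0.20). *Fam58b* and *Oraov1* had differences of -1.31 (SE 0.33) and -1.38 (SE 0.42). *Rnaset2b*, an RNase T2 gene with a near-identical copy (*Rnaset2a*) and therefore uncertain, had the most negative value, -2.39 (SE 0.59), which was -4.28 within FL-06 and -0.42 within R-09. The first gene outside the list was *Gp5* (moderated t -3.24, difference -1.29), next to *Oraov1* inside it (moderated t -3.29).

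**Figure D3:**
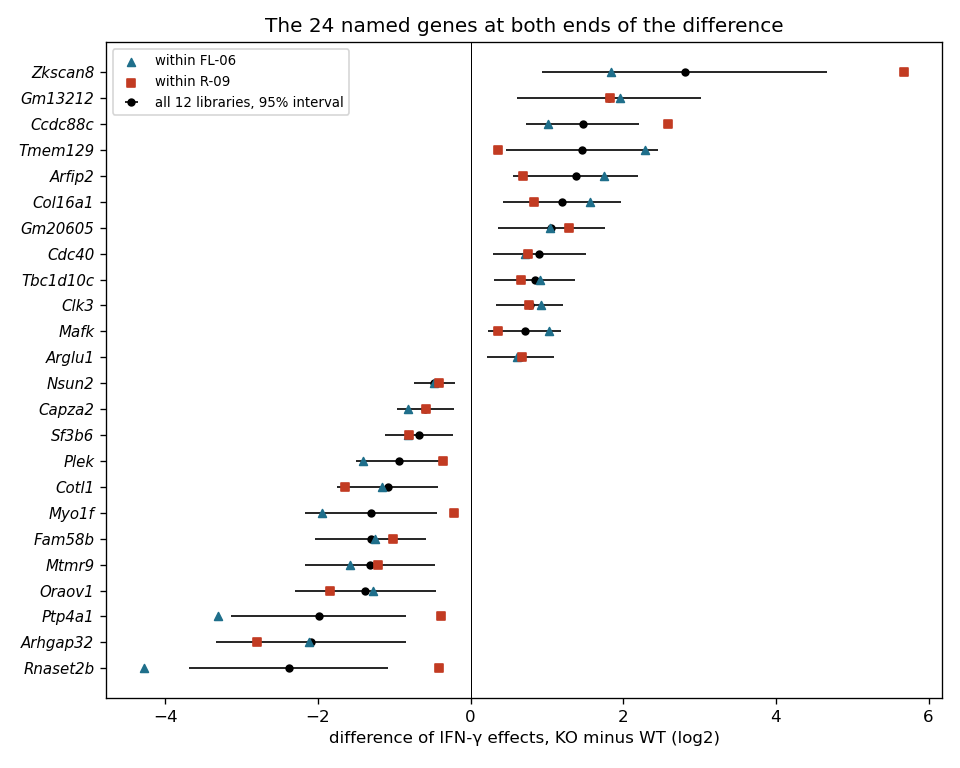
Difference of the IFN-γ effects, KO minus WT (x axis, log2), for the 12 most positive and 12 most negative named genes (y axis). Black points and lines are the estimate over all 12 libraries with its 95% interval, blue triangles the difference within FL-06 and red squares the difference within R-09. The intervals leave out 0 before adjustment and none passed after it, and FL-06 and R-09 differ most for *Zkscan8*, *Rnaset2b* and *Ptp4a1*.

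Megakaryocyte and platelet genes had a median difference of -0.36, with a median effect of -0.032 in KO and 0.27 in WT. Of 26 tested members 2 had a difference above 0, 3 had an unadjusted p below 0.05 with a lower effect in KO (background 2.25%), and 0 passed after adjustment. *Gp5* had 272, 667 and 2595 units in treated KO libraries and 387, 708 and 2564 units in naive KO libraries, against 393, 489 and 2672 units in treated WT libraries and 157, 146 and 2258 units in naive WT libraries. In R-09 the 4 values of *Gp5*, a subunit of the platelet glycoprotein Ib-IX-V complex, lay close together, and in FL-06 both treated WT values were above both naive WT values while the treated KO value was below the naive KO value. The difference of *Gp5* was -1.29 (SE 0.40), -2.04 within FL-06 and -0.23 within R-09. *Gata2* and *Zfpm1*, a transcription factor and the GATA cofactor FOG1, had the highest levels of the list and differences of -0.10 (SE 0.24) and -0.20 (SE 0.25). The list median was -0.52 within FL-06 and -0.032 within R-09, and the summed level of 30 listed genes was 89466 to 96440 units in R-09 against 50615 to 62881 units in the other 8 libraries. The part of the code series in this list's difference was not tested beyond these values.

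HSC identity genes had a median difference of -0.13 with 8 of 28 above 0, close to the all-gene median of -0.11. *Fgd5* had 904, 968 and 326 units in treated KO libraries and 827, 915 and 243 units in naive KO libraries, against 803, 879 and 189 units in treated WT libraries and 1253, 1472 and 362 units in naive WT libraries. *Fgd5*, a guanine nucleotide exchange factor used as an HSC reporter locus, was lower in both WT series after treatment and slightly higher in each KO series. Its difference was 0.98 (SE 0.31), with an adjusted p of 0.9331 in limma over all genes. *Kit*, the stem cell factor receptor, had a difference of 0.13 (SE 0.17). *Cd34* had 558, 821 and 3499.8 units in treated KO libraries and 764, 764 and 3629 in naive KO libraries, against 774, 724 and 3331 in treated WT and 489.6, 462 and 3098 in naive WT. Its difference was -0.60 (SE 0.25), -1.11 within FL-06 and -0.16 within R-09. The list median was -0.35 within FL-06 and 0.29 within R-09.

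Genes of niche adhesion and homing had a median difference of -0.15, with 5 of 25 above 0 and 1 at an unadjusted p below 0.05 with a lower effect in KO, near the 2.25% of all genes. That gene, chosen by its p, was *Cd47*, the ligand that restrains phagocytosis by macrophages, with effects of -0.17 in KO and 0.17 in WT and a difference of -0.35 (SE 0.16). *Itgb1*, the beta-1 integrin, had a difference of -0.34 (SE 0.18). *Msn* and *Ezr*, which link the membrane to actin, had differences of -0.093 (SE 0.25) and 0.25 (SE 0.19). For *Cd47* all 3 KO effects (-0.19, -0.13 and -0.20) lay below both WT effects (0.14 and 0.25).

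Among quiescence genes and cyclin-dependent kinase inhibitors the median difference was -0.13, and 7 of 19 were above 0. The list median was -0.34 within FL-06 (5 of 19 above 0) and 0.30 within R-09 (14 of 19 above 0). At an unadjusted p below 0.05 there were 2 members with a higher effect in KO (background 1.15%) and 0 with a lower one. *Gfi1* had 116, 78.6 and 250.0 units in treated KO libraries and 62.4, 157 and 182 units in naive KO libraries, against 96.0, 98.7 and 232 units in treated WT libraries and 224, 583 and 612 units in naive WT libraries. *Gfi1*, a transcriptional repressor that restrains HSC proliferation, had WT effects of -1.88 (FL-06) and -1.40 (R-09). Its KO effects were 0.89 (FL-06), -0.99 (R-07) and 0.46 (R-09). Pooled over code series, treated and naive values overlapped in both genotypes. The difference was 1.84 (SE 0.78). *Cdkn1c*, the inhibitor p57 of quiescent HSCs, had 274, 258 and 626 units in treated KO libraries and 171, 173 and 469.9 in naive KO libraries, against 263, 229.7 and 492 in treated WT and 386, 251 and 791 in naive WT. Each KO series was higher after treatment, and the difference was 1.01 (SE 0.46). *Txnip*, a thioredoxin-binding protein, and *Trp53*, the p53 gene, had differences of -0.13 (SE 0.16) and -0.13 (SE 0.19).

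In the G2/M list the median effect was 0.031 in KO and 0.26 in WT, and the median difference -0.24. Of 40 members 8 had a difference above 0 and 4 an unadjusted p below 0.05 with a lower effect in KO, against 2.25% of all genes. *Nusap1* had 627, 577 and 1003 units in treated KO libraries and 1039, 648 and 1323 units in naive KO libraries, against 1002, 998 and 1208 units in treated WT libraries and 674, 869 and 1050.1 units in naive WT libraries. *Nusap1*, a spindle microtubule protein, was lower in each KO series after treatment and had a difference of -0.75 (SE 0.27). *Hmmr*, a spindle and hyaluronan-binding protein, had a difference of -0.62 (SE 0.26). *Mki67* and *Top2a*, the most abundant members, had differences of -0.22 (SE 0.25) and -0.091 (SE 0.16). Both were far lower in R-09 than in the other series, at 1778 to 2551 units for *Top2a* against 6963 to 11492 units elsewhere. The G2/M median was -0.094 within FL-06 and -0.63 within R-09. The G1/S list of DNA replication genes had a median difference of -0.073, with 13 of 40 above 0 and 0 at an unadjusted p below 0.05, and medians of 0.037 within FL-06 and -0.32 within R-09.

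Immediate early genes, which are transcribed within minutes of a stimulus and also respond to cell handling, had a median difference of 0.21, with 14 of 22 above 0. Their median effect was 0.028 in KO and -0.20 in WT. *Klf2* had 501, 503 and 526 units in treated KO libraries and 241, 353 and 349.7 units in naive KO libraries, against 104, 152 and 221 units in treated WT libraries and 149.6, 249 and 739 units in naive WT libraries. *Klf2*, a Krüppel-like factor, was higher in each KO series after treatment and lower in each WT series on average, and its difference of 1.70 (SE 0.62) was the 1 member at an unadjusted p below 0.05 (background 1.15% with a higher effect in KO). *Ier5* had a difference of 0.59 (SE 0.29), *Jun*, an AP-1 subunit, one of 0.37 (SE 0.28), which was 0.077 without naive WT library 3, and *Myc* one of -0.30 (SE 0.17). The code series gave opposite medians, -0.52 within FL-06 and 1.57 within R-09. In R-09 22 of 22 members had a difference above 0 and in FL-06 8. Of all 10816 genes, 5134 were above 0 in R-09 and 4486 in FL-06. Without the R-09 libraries the list median was -0.48, so the positive median over all 12 libraries rests on 1 library per group.

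NF-κB targets and regulators had a median difference of -0.0039, with 9 of 18 above 0 and 0 at an unadjusted p below 0.05. The list median was -0.30 within FL-06 and 0.02 within R-09. *Nfkb1*, the p105 and p50 subunit, had effects of -0.058 in KO and 0.56 in WT and a difference of -0.62 (SE 0.29), and *Nfkb2*, the p100 and p52 subunit, had effects of 0.61 in KO and -0.16 in WT and a difference of 0.77 (SE 0.43). For *Nfkb1* the naive shallow WT library had 1164 units against 2093 in the other naive FL-06 library, and its difference was -0.33 without naive WT library 2. *Tnfaip2* had a difference of 0.044 (SE 0.20). Genes of apoptosis and the BCL2 family had a median difference of -0.093, with 9 of 22 above 0 and 0 at an unadjusted p below 0.05. Their median was -0.28 within FL-06 and 0.13 within R-09.

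Many metabolic and ribosomal genes had narrow intervals, which followed the level of a gene over all genes as given above. Oxidative phosphorylation subunits had a median difference of 0.0012, 23 of 45 were above 0 and the interval of 38 lay between -1 and 1 (background 33.1%). The code series differed, with a list median of 0.091 within FL-06 (28 of 45 above 0) and -0.33 within R-09 (5 of 45 above 0). *Atp5b* and *Atp5a1*, the beta and alpha subunits of the ATP synthase head, had differences of 0.0012 (SE 0.17) and -0.068 (SE 0.11), the second with an interval of -0.32 to 0.18. At an unadjusted p below 0.05 3 members had a lower effect in KO, against 2.25% of all genes. Among them were *Uqcrfs1*, the Rieske subunit of complex III, with -0.60 (SE 0.21), and *Atp5c1*, the ATP synthase gamma subunit, with -0.41 (SE 0.15). Cytosolic ribosomal protein genes had a median difference of -0.086, 14 of 57 were above 0 and the interval of 56 lay between -1 and 1 (background 33.1%). Here too the code series differed, with a median of 0.022 within FL-06 (31 of 57 above 0) and -0.24 within R-09 (7 of 57 above 0). Glycolysis genes had a median difference of -0.15, with 5 of 21 above 0 and 2 at an unadjusted p below 0.05 with a lower effect in KO (background 39.8% and 2.25%). *Hk2*, a hexokinase, had 1235, 896 and 144 units in treated KO libraries and 1229, 734 and 312 in naive KO libraries, against 1321, 1040.3 and 211 in treated WT and 663, 405 and 130.1 in naive WT, a difference of -1.29 (SE 0.47). Every treated WT value of *Hk2* exceeded the naive WT values of its code series. *Pgam1*, a phosphoglycerate mutase, had a difference of -0.54 (SE 0.20), *Gapdh* one of -0.15 (SE 0.21) and *Ldha*, lactate dehydrogenase A, one of -0.18 (SE 0.14).

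**Figure D4:**
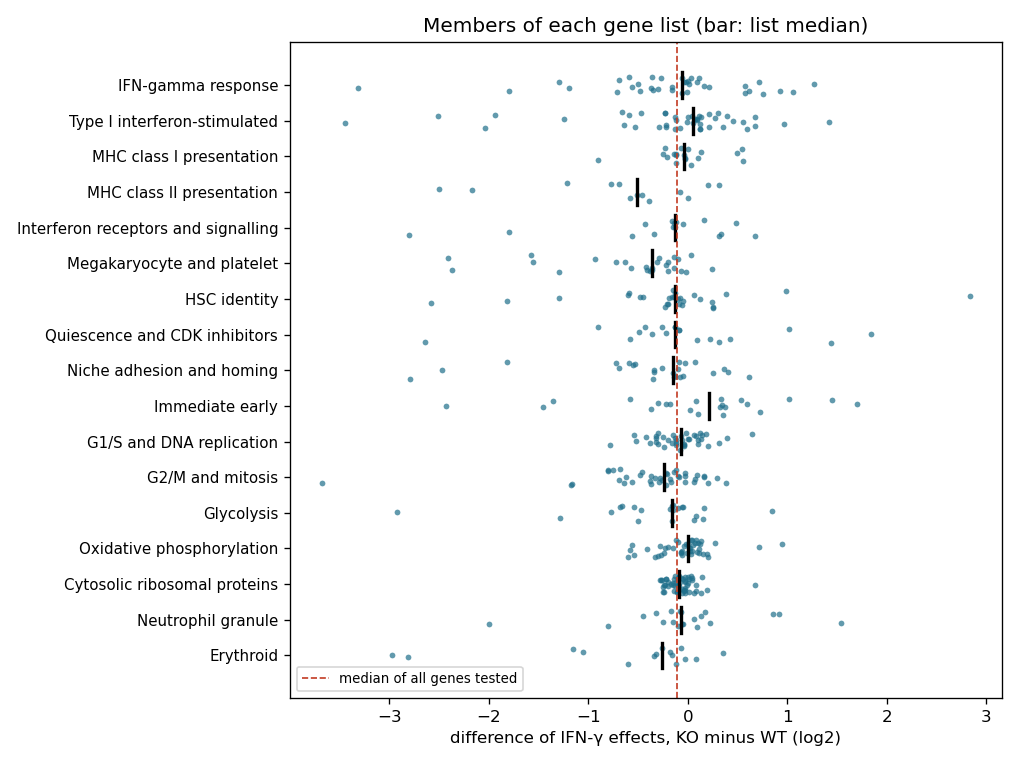
Difference of the IFN-γ effects, KO minus WT (x axis, log2), for the tested members of 17 gene lists (y axis). Each point is a gene, black bars are list medians and the dashed line is the median of all genes tested, -0.11. Most lists sit around that line, with MHC class II (median -0.51) and megakaryocyte genes (median -0.36) to its left and immediate early genes (median 0.21) to its right.

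Markers of other blood cells gave no member past adjustment. Neutrophil granule genes had a median difference of -0.067, 8 of 20 above 0 and 0 at an unadjusted p below 0.05, and the list median was 0.21 within FL-06 and -0.32 within R-09. The summed neutrophil level was 11659 to 121851 units in treated KO libraries, 12004 to 258438 in naive KO libraries, 14463 to 138924 in treated WT libraries and 18520 to 213921 in naive WT libraries, with the R-09 library the highest in every group. Erythroid genes had a median difference of -0.26, 2 of 15 above 0, and 0.13 within FL-06 and -0.89 within R-09. Genes of monocytes, macrophages and dendritic cells had 2 of 9 above 0 and 1 at an unadjusted p below 0.05 with a lower effect in KO (background 2.25%). That gene was *C1qa*, a complement subunit of macrophages, which was at 0 in 2 of 3 naive WT libraries. Its R-09 values were 333.5 units in naive WT, 442 in treated WT, 709.5 in naive KO and 212 in treated KO. The other libraries had 0 to 41.6 units. Of the remaining lists, p53 targets had 7 of 18 members above 0, mature B and plasma cell genes 1 of 3 and T and NK cell genes 1 of 3. Mast cell and basophil genes had 0 of 3, endothelial and stromal genes 3 of 7 and the neighbours of *Bst2* 8 of 21, against 39.8% of all genes. At an unadjusted p below 0.05, 1 p53 target (*Plk3*) and 1 endothelial gene (*Emcn*) had a lower effect in KO (background 2.25%). In the B cell list 1 gene (*Igll1*) had a higher effect in KO (background 1.15%). The part of these cells in the differences above was not tested.

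Some low-level genes with values at 0, named here after their values were seen, had large differences with wide errors. *Plk3*, a polo-like kinase, had 77.0, 99.4 and 128 units in treated KO libraries and 83.1, 123 and 98.8 in naive KO libraries, against 91.9, 91.3 and 123 in treated WT and 0, 0 and 31.5 in naive WT, a difference of -5.02 (SE 1.65). Here both FL-06 naive WT libraries were listed at 0. *Igll1*, a surrogate light chain gene of B cell precursors, had a difference of 4.40 (SE 1.52), and *Emcn*, an endothelial sialomucin, one of -4.40 (SE 1.96). Fold changes of genes at 0 depend on the pseudocount and are no bound.

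Read within single code series, the differences in FL-06 and R-09 showed no correlation across genes. Those series share no library, and R-07 has no WT library. Across the 10816 genes the differences in FL-06 and R-09 had Pearson r = -0.05 and a Spearman coefficient of -0.05, and 5296 genes (49%) had the same sign in both. These values describe genes, which are not independent of each other, and carry no p. Without naive WT library 2 the Pearson r was -0.01. The WT effect within FL-06 and within R-09 correlated at r = -0.02 and the KO effect at r = -0.03, and in KO the r was 0.07 between FL-06 and R-07 and -0.03 between R-07 and R-09. Without the R-09 libraries the list medians also turned positive for erythroid genes (0.11), neutrophil granule genes (0.05), ribosomal protein genes (0.03), G1/S genes (0.02) and the IFN-γ response (0.0087). The median difference of all genes was -0.14 in FL-06, -0.05 in FL-06 without naive WT library 2, and -0.03 in R-09. An effect above 0 in all 3 KO series and below 0 in both WT series was found for 177 genes (1.64%), and the reverse for 365 genes (3.37%). An effect above 0 in all 5 combinations of genotype and series was found for 489 genes (4.52%), and below 0 in all 5 for 322 genes (2.98%). Of the genes named above, *H2-K1*, *H2-D1*, *H2-Q7*, *H2-T22*, *Cd74*, *H2-Ab1*, *Lgals3bp*, *Ifitm3* and *Phf11d* were above 0 in all 5.

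**Figure D5:**
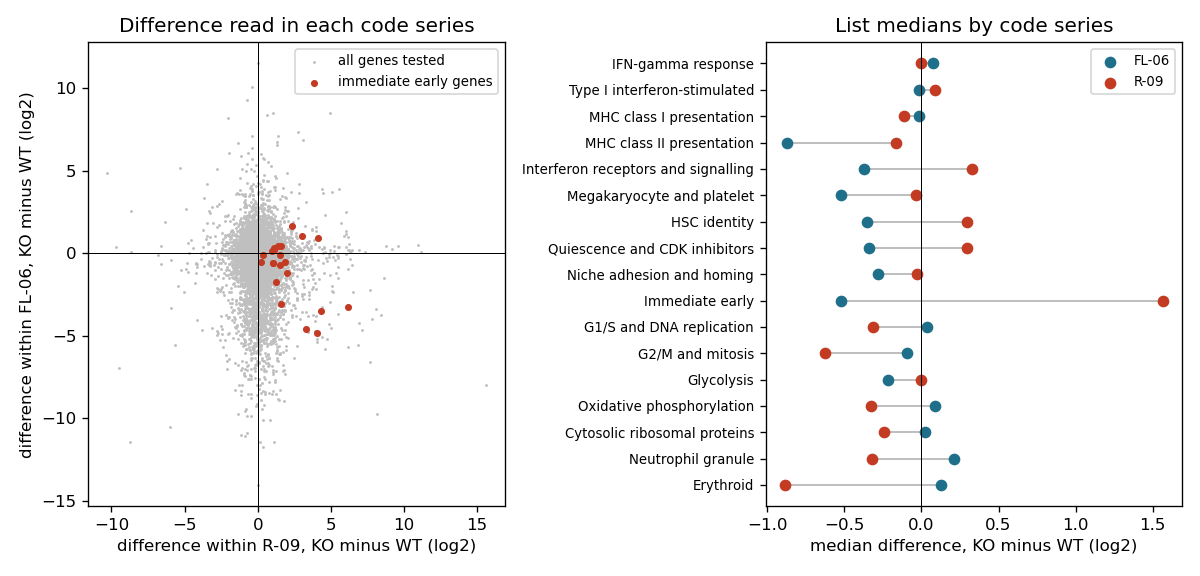
Difference of the IFN-γ effects, KO minus WT (log2), read within single code series. Left, each point is a gene, with the difference within R-09 on the x axis and within FL-06 on the y axis, and the immediate early genes in red. Right, medians of 17 gene lists (x axis, log2) within FL-06 (blue) and R-09 (red). The points form no diagonal (Pearson r = -0.05), and the immediate early genes lie to the right of 0 on the x axis.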

How the data were processed

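Per the labels and the series' design text, bulk RNA-seq libraries were made with a stranded total RNA kit from HSCs sorted from bone marrow, 3 in each of 4 groups. The authors' deposited table gives each gene a normalized signal that is never negative, called units here, and the submitters' processing notes list STAR and DESeq with no version. The sources used here name no genome build, annotation or strand setting of the counting, so antisense and overlapping genes cannot be told apart. Of 24972 rows, 26 with names turned into dates were left out. Values were not whole reads and no count model was used. Estimated depths rest on the smallest steps between low values and are rough.

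Values were analysed as log2(value + 1), which understates the change between low values above 0. Where a library was at 0 the change depended on the pseudocount and could be large. Of the 975 genes at 0 in naive WT library 2, 812 had a difference below -1. All 12 libraries entered 1 limma-trend model with 4 group means plus a term for the code series (limma 3.58.1, R 4.3.3, residual df 6, prior df 5.02), checked on simulated data. P-values were adjusted by Benjamini-Hochberg over 10816 genes, with a threshold of 0.05. Lists (26) are described by counts and medians beside all genes, and their effects within code series are means of the libraries of a group. Promoter windows came from RefSeq (GRCm38.p6).

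The members, the lists and the genes named were chosen with earlier results of these data known. Named genes were *Bst2*, the 12 most positive and 12 most negative moderated t under the limits given in the text, and, of each list described gene by gene, the 2 tested members of highest mean and up to 2 of smallest p. Replicate numbers in the titles were not used as pairs in the main model. Correlations of deviations between same-numbered libraries ran from -0.88 to 0.83, and 8 of 18 exceeded 0.1. They ran from 0.46 to 0.83 within the same code series and from -0.88 to 0.65 between different series. They therefore cannot show whether the numbers pair samples. No libraries were identical. A signalling gene that this rule named is not reported here. Alternatives changed the pseudocount, the filter, the scaling, the covariate, the empirical Bayes step and the libraries.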

Additional observations from a re-analysis of the deposited data

How the results depend on the processing

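No gene passed the adjusted threshold under pseudocount, filter, scaling, covariate, code series or empirical Bayes alternatives, or without R-07 or within FL-06. A single gene passed without R-09 and without treated WT library 3: *Amd2* (adjusted p = 0.002969 and 5.26e-07), which has near-identical copies and was listed at 0 in treated WT libraries 1 and 2 and at 1362 to 3829.7 units elsewhere. Without naive WT library 3, *Hmga1b* and *Pxmp4* passed (1 higher and 1 lower, adjusted p = 0.03896), both at 0 in some FL-06 libraries. So with 1 library left out the adjusted counts ran from 0 to 1 in each direction. These 3 genes were chosen after their values were seen. The unadjusted counts of 124 higher and 243 lower moved by over 1.5 times without naive WT library 1 (210.0 and 661), naive WT library 2 (226 and 459), naive WT library 3 (201 and 582), treated WT library 1 (50 and 85) and treated WT library 2 (61 and 82), and for 1 direction without naive KO library 1 (217 higher) and naive KO library 3 (146 lower). Genes with a difference over 1 ran from 361 to 560.0, those under -1 from 738 (without naive WT library 2) to 1675, and narrow intervals from 2750.0 to 4413. The filter at 10 units gave 374 unadjusted lower calls, 849 differences over 1 and 2461 under -1. Without a filter these were 434, 1660 and 3617. With at least 100 units in all 12 libraries, 51 lay over 1, 80 under -1 and 847 effects were separated lower in KO. Quantile normalization gave 223 unadjusted higher calls, 729 over 1 and 590 under -1, and the values -0.038 for *Bst2*, 0.073 for *Psme1*, 0.071 for *H2-K1*, 0.035 for *H2-Ab1* and 0.015 for *Atp5a1*. Without the code series the unadjusted calls were 11 higher and 7 lower and the narrow intervals 268, since that term takes up the large gap between series. Without R-09 the counts were 1 adjusted higher, 195 and 375 unadjusted, and the values -0.65 for *Bst2*, 0.084 for *Psme1*, 0.0028 for *Mki67* and 0.016 for *Top2a*. FL-06 alone gave 228 unadjusted higher calls, 1405 narrow intervals, 868 over 1 and 2146 under -1, and 0.13 for *Psme1*, 0.091 for *Mki67* and 0.19 for *Trp53*. R-09 alone, with no test, gave 1029 over 1 and 679 under -1, and -0.31 for *Tgtp2*, 0.23 for *Ifitm3*, -0.11 for *H2-T22*, 0.63 for *Gata2*, 0.061 for *Zfpm1*, 0.20 for *Myc*, 0.30 for *Txnip*, 0.23 for *Msn*, -0.21 for *Tnfaip2* and -0.37 for *Atp5b*. With code series by treatment the values were 0.024 for *Gata2*, -0.053 for *Tnfaip2* and -0.037 for *Atp5b*, without R-07 -0.11 for *Tgtp2*, 0.015 for *Gata2*, 0.0040 for *Trp53* and -0.052 for *Atp5b*, and with a pseudocount of 10 -0.27 for *Bst2*. With 1 library left out, signs changed for these genes, over ranges of -0.15 to 0.20 for *Psme1*, -0.24 to 0.10 for *Gata2*, -0.11 to 0.16 for *Tnfaip2*, -0.35 to 0.015 for *Gapdh*, -0.70 to 0.090 for *Ifitm3*, -0.37 to 0.18 for *H2-Ab1*, -0.27 to 0.13 for *Msn*, -0.12 to 0.13 for *Atp5b*, -1.24 to 2.44 for *Bst2*, -0.36 to 0.071 for *Mki67*, -0.17 to 0.013 for *Top2a*, -0.11 to 0.58 for *Tgtp2*, -0.26 to 0.0040 for *Trp53* and -0.037 to 0.23 for *Kit*. The cause of each change was not tested. In all, 30 of 1107 gene values changed sign under the alternatives that leave out no single library. Under the same alternatives 54 of 375 list medians moved by 1 SD or more. These alternatives include leaving out all of R-09 or R-07 and keeping FL-06 or R-09 alone. With 1 library left out, 37 of 960 gene values changed sign. Many of the 80 genes behind these values were chosen by an extreme moderated t or a small p. The shares of changed signs are therefore no measure of stability over all genes. With the replicate block, 0 genes passed and 104 and 197 passed unadjusted. Whether same-numbered libraries are paired cannot be told from the correlations given above. Depth limits genes near 102 units in naive WT library 2, and 0% of genes under a mean log2 of 7 had a narrow interval.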
